A study of Mus musculus with 4 samples.

Results

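The genes described are 9 genes of the lysosomal breakdown of sphingolipids and gangliosides: Hexa, Gm2a, Neu1, Galc, Asah1, Psap, Gla, Arsa and Smpd1. They were chosen by name as hydrolases and activator proteins of these lipids, a class that builds up as a secondary storage product in mucopolysaccharidosis, and the rule uses no measured value, although earlier results of these data were known when the genes were listed. All 9 were present among the 12700 genes counted. RNA-seq was carried out on polyA RNA from the brains of 9 months old C57BL/6 mice. These mice were either Ids-ko (Ids-/-), a model of mucopolysaccharidosis type II that lacks iduronate 2-sulfatase, or wild type (wt). A pool of 7 mice gave 1 library for each of 4 conditions: the cerebral cortex of Ids-ko mice (CxH) and of wt mice (CxWT), and the dissected midbrain, diencephalon and hippocampus of Ids-ko mice (MH) and of wt mice (MWT). Both areas were dissected from each brain, so that the libraries of a genotype share their mice. The study compared CxH vs. CxWT and MH vs. MWT to ask what loss of Ids changes in each area, and CxH vs. MH and CxWT vs. MWT to ask how the areas differ within a genotype.

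Gangliosides are sialic acid-carrying glycosphingolipids of neuronal membranes, and sulfatide and galactosylceramide are the main glycolipids of myelin. In the lysosome they are taken apart from the outer sugar inwards by a chain of exohydrolases, several of which need a small lipid-binding activator protein to reach their substrate. The chain ends in ceramide, which is also reached from sphingomyelin and is split into sphingosine and a fatty acid. Loss of single steps causes the sphingolipidoses, among them Tay-Sachs disease (HEXA), the AB variant of GM2 gangliosidosis (GM2A), sialidosis (NEU1), Krabbe disease (GALC), Farber disease (ASAH1), Fabry disease (GLA), metachromatic leukodystrophy (ARSA) and Niemann-Pick disease types A and B (SMPD1).

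Libraries held between 16380080 (MWT) and 23475080 (CxH) reads on genes. Levels are given in RPM, that is, reads scaled to the aligned reads of each library, with exact Clopper-Pearson 95% intervals that cover counting error only. Ids, the deleted gene, stood at 135 RPM in CxH against 354 RPM in CxWT, and at 368 RPM in MH against 155 RPM in MWT. The library labelled MH thus held more Ids than the library labelled MWT, which goes against these labels, and each direction given below between these libraries is that of the labels. Markers of the areas also went against the labels: 10 genes of cortical excitatory neurons summed to 1784 RPM in CxH and 235 in CxWT, with 1651 in MH and 178 in MWT, and 13 genes of midbrain and diencephalon to 27.8, 474, 38.3 and 408 RPM. For this reason the remaining pairs, CxH vs. MWT and MH vs. CxWT, are given beside the 4 comparisons of the study. With 1 library per condition, a difference compares libraries and not conditions, so that no p-value is given. A gene is said to be called when its log2 ratio was at least 0.7 in size and a likelihood ratio test on the reads of both libraries gave a p-value under 0.05, the thresholds of the study. A log2 ratio is followed by its standard error (SE) from counting.

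Every one of the 9 genes was well covered, the lowest count being 347 reads for Gla in CxWT. Together they took 0.235%, 0.224%, 0.214% and 0.212% of the reads on genes in CxH, CxWT, MH and MWT. Psap alone gave 71.9%, 71.8%, 73.7% and 68.0% of these reads. The summed level of the 9 genes was 1434 RPM in CxH and 1351 in CxWT, with 1265 in MH and 1199 in MWT, and without Psap it was 403, 381, 333 and 383 RPM, so that the order of the libraries depended on this gene. Scaled also by transcript length (RPKM), Psap ranged over the 4 libraries from 307 to 388, Smpd1 from 40.7 to 52.8 and Hexa from 19.1 to 36.0. These 3 genes kept their places in every library, and their ranges did not overlap with each other, but the range of Hexa overlapped with that of Asah1. Gm2a (15.6 to 19.0 RPKM), Neu1 (12.9 to 16.5 RPKM) and Asah1 (8.87 to 20.0 RPKM) came next with overlapping ranges, and Asah1 moved from the sixth place to the fourth in MWT. Arsa (6.47 to 9.83 RPKM) and Galc (6.12 to 8.17 RPKM) overlapped as well, and Gla, at 3.16 to 4.76 RPKM, was the lowest in every library. The range of each gene spans 4 conditions of 1 library each and is not a replicate error.

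**Figure D1:**
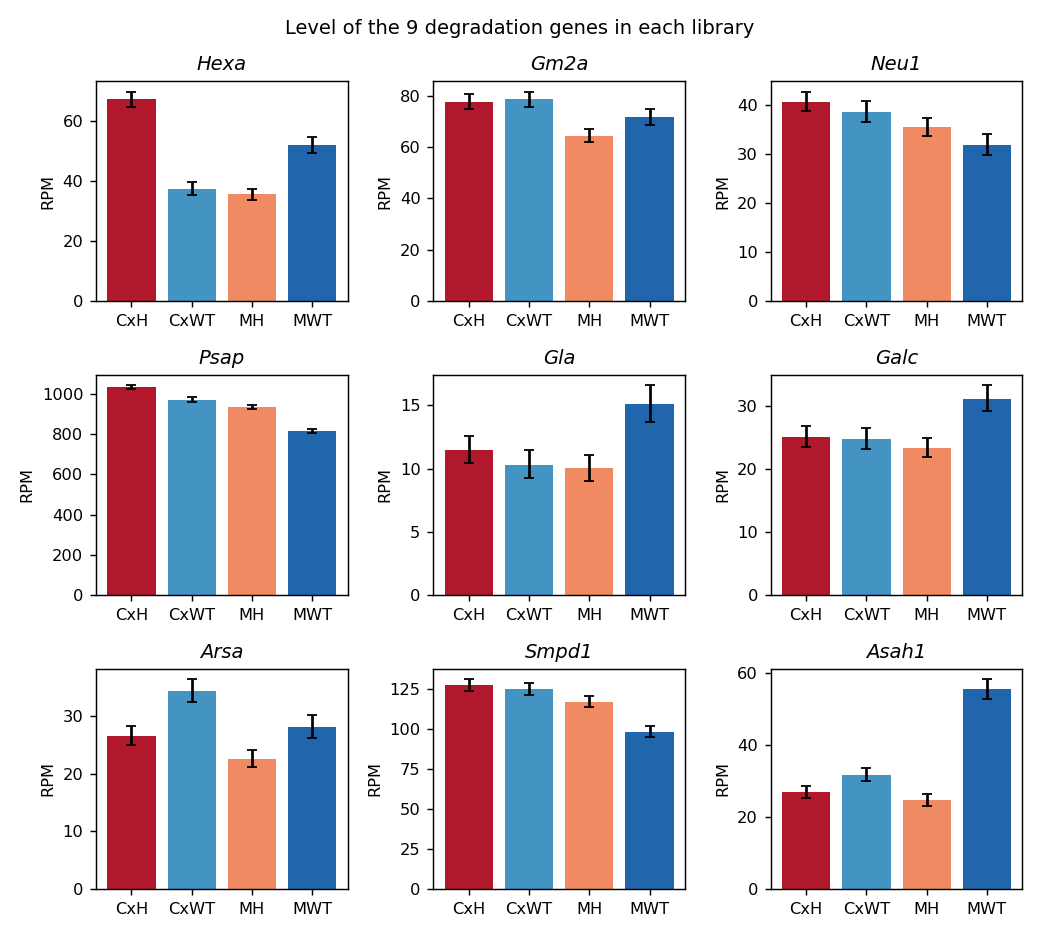
Level of each of the 9 genes in the 4 libraries, in RPM, on an axis of its own that starts at 0, with error bars for the exact 95% counting interval of 1 library. Hexa is highest in CxH at 67.2 RPM, Asah1 stands apart in MWT at 55.5 RPM, and Neu1, Psap and Smpd1 fall off in the order CxH, CxWT, MH, MWT.

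Among the 9 genes, the highest level over the lowest ranged from 1.22-fold (Gm2a) to 2.26-fold (Asah1), with a median of 1.34. Where all 4 libraries held 100 reads or more, as for 11010 genes, the median of this ratio was 1.498, and 5 of the 9 genes lay under it. CxH held the highest level of 4 genes (Hexa, Neu1, Psap and Smpd1), CxWT of 2 (Gm2a and Arsa) and MWT of 3 (Galc, Asah1 and Gla). MH held the lowest level of 6 genes, all but Neu1, Psap and Smpd1, which were lowest in MWT.

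Hexa encodes the alpha subunit of beta-hexosaminidase A, which removes the terminal N-acetylgalactosamine from ganglioside GM2. It lies on chromosome 9 from 59387474 to 59412914 on the plus strand (NCBI37/mm9). Its level was 67.2 RPM (64.7 to 69.9) in CxH, 37.5 RPM (35.5 to 39.6) in CxWT, 35.6 RPM (33.7 to 37.5) in MH and 51.9 RPM (49.3 to 54.6) in MWT. CxH stood highest and MWT second, while CxWT and MH, the libraries with most Ids, were lowest and overlapped within their intervals. Hexa was called higher in CxH vs. CxWT, at a log2 ratio of 0.84 ± 0.050 (SE), and in CxH vs. MH, at 0.92 ± 0.049 (SE). It was below the threshold in the opposite direction in MH vs. MWT, at -0.55 ± 0.054 (SE), and in CxWT vs. MWT, at -0.47 ± 0.055 (SE). Between CxH and MWT the log2 ratio was 0.37 ± 0.047 (SE), and between MH and CxWT it was -0.08 ± 0.057 (SE). After the ratios were corrected for the GC content and length of transcripts, the log2 ratio was 0.66 in CxH vs. CxWT, which ended that call, and 0.75 in CxH vs. MH. The 250 bases before the start of Hexa (RefSeq, GRCm38.p6, chr9:59539290-59539539, plus strand) are shown because it was the only one of the 9 genes called higher in a comparison. They are 51.6% GC with 6 CpG sites, and hold no match to the E-box motifs described for Gla and Arsa.
Hexa: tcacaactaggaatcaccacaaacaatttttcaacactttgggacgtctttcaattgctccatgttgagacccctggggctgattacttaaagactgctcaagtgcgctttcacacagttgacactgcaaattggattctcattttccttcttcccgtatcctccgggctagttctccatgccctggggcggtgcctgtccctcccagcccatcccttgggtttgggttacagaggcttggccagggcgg

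Gm2a belongs to the same step, and encodes the activator that lifts GM2 out of the membrane for beta-hexosaminidase A. It lies on chromosome 11 from 54911617 to 54926531. Its level was 77.7 RPM (74.9 to 80.5) in CxH, 78.5 RPM (75.6 to 81.6) in CxWT, 64.4 RPM (61.8 to 67.0) in MH and 71.5 RPM (68.5 to 74.7) in MWT. It was the most even of the 9 genes, and it was not called in any pair. Its log2 ratios were -0.02 ± 0.039 (SE) in CxH vs. CxWT and -0.15 ± 0.043 (SE) in MH vs. MWT.

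Neu1 encodes the lysosomal sialidase, which removes sialic acids and is active in a complex with the protective protein cathepsin A (Ctsa). Its gene lies on chromosome 17 from 35068198 to 35072898. Its level was 40.8 RPM (38.8 to 42.8) in CxH, 38.7 RPM (36.7 to 40.9) in CxWT, 35.6 RPM (33.7 to 37.5) in MH and 32.0 RPM (29.9 to 34.1) in MWT. The intervals of neighbouring libraries in this order overlapped. The 95% counting interval of the log2 ratio was still off 0 in MH vs. MWT (0.033 to 0.28) and in MH vs. CxWT (-0.233 to -0.013). The log2 ratio was 0.07 ± 0.054 (SE) in CxH vs. CxWT and 0.15 ± 0.062 (SE) in MH vs. MWT, and the largest in size was 0.35 ± 0.060 (SE) in CxH vs. MWT. Ctsa, its partner, was called higher in CxH vs. CxWT at a log2 ratio of 0.78 (3459 and 1760 reads) and was not called in MH vs. MWT at -0.22.

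Psap encodes prosaposin, which is cut into saposins A to D, the activators of several of the hydrolases named here, and lies on chromosome 10 from 59740375 to 59765345. Its level was 1031 RPM (1021 to 1042) in CxH, 971 RPM (960 to 981) in CxWT, 932 RPM (923 to 942) in MH and 816 RPM (806 to 826) in MWT. The 4 intervals were apart from each other, since this gene had between 23617 and 39713 reads, and yet its largest log2 ratio was 0.34 ± 0.012 (SE), in CxH vs. MWT. Smpd1, the acid sphingomyelinase that releases ceramide from sphingomyelin, had the same order of libraries. It lies on chromosome 7 from 112702874 to 112706902, and was at 127 RPM (124 to 131) in CxH, 124 RPM (121 to 128) in CxWT, 117 RPM (113 to 120) in MH and 98.1 RPM (94.5 to 102) in MWT. Its log2 ratios were 0.03 ± 0.030 (SE) in CxH vs. CxWT and 0.25 ± 0.035 (SE) in MH vs. MWT. Neither gene was called in any pair.

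Gla encodes alpha-galactosidase A, which removes the terminal galactose of globotriaosylceramide. It lies on chromosome X from 131122688 to 131135664, as does Ids, from 67596244 to 67618260. Its level was 11.5 RPM (10.4 to 12.6) in CxH, 10.3 RPM (9.26 to 11.5) in CxWT, 10.01 RPM (9.02 to 11.1) in MH and 15.1 RPM (13.7 to 16.6) in MWT. MWT was above the other 3 libraries, which overlapped within counting error. Its log2 ratio was -0.59 ± 0.10 (SE) in MH vs. MWT, -0.55 ± 0.10 (SE) in CxWT vs. MWT and 0.15 ± 0.10 (SE) in CxH vs. CxWT, with no call.

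Galc encodes galactosylceramidase, which removes the galactose from the myelin lipid galactosylceramide, and lies on chromosome 12 from 99440514 to 99497669. It was at 25.2 RPM (23.6 to 26.8) in CxH, 24.9 RPM (23.2 to 26.6) in CxWT, 23.4 RPM (21.9 to 25.0) in MH and 31.2 RPM (29.2 to 33.3) in MWT. As for Gla, MWT was the highest and the other 3 libraries overlapped. The log2 ratio was -0.42 ± 0.068 (SE) in MH vs. MWT, -0.33 ± 0.069 (SE) in CxWT vs. MWT and 0.02 ± 0.068 (SE) in CxH vs. CxWT, with no call.

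Arsa encodes arylsulfatase A, which removes the sulfate of sulfatide, and needs, as iduronate 2-sulfatase does, activation by the product of Sumf1. It lies on chromosome 15 from 89302907 to 89307856 on the minus strand and shares 690 exonic bases with an antisense lincRNA (C230037L18Rik). As the use of strand in counting is not given in the sources used here, reads of both may be included in its count. It was at 26.5 RPM (24.9 to 28.2) in CxH, 34.3 RPM (32.4 to 36.4) in CxWT, 22.6 RPM (21.1 to 24.2) in MH and 28.1 RPM (26.2 to 30.1) in MWT. Both libraries labelled Ids-ko were below the wt library of the same area label, with log2 ratios of -0.37 ± 0.062 (SE) in CxH vs. CxWT and -0.32 ± 0.071 (SE) in MH vs. MWT. Neither passed the threshold, and the largest in size of any pair was -0.60 ± 0.065 (SE) in MH vs. CxWT. After the GC and length correction, Arsa was called lower in MH vs. MWT, at a log2 ratio of -0.74, and in MH vs. CxWT, at -0.72. Sumf1 was between 20.6 and 24.8 RPM in all libraries.

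Asah1 encodes acid ceramidase, which splits ceramide, and lies on chromosome 8 from 42425551 to 42460127. Its level was 26.8 RPM (25.2 to 28.5) in CxH, 31.8 RPM (29.9 to 33.7) in CxWT, 24.6 RPM (23.0 to 26.2) in MH and 55.5 RPM (52.8 to 58.3) in MWT. MWT stood apart from the other 3 libraries, and every call of Asah1 involved it. It was called lower in MH vs. MWT, at a log2 ratio of -1.17 ± 0.060 (SE), in CxWT vs. MWT, at -0.81 ± 0.057 (SE), and in CxH vs. MWT, at -1.05 ± 0.058 (SE). In the pairs without MWT its log2 ratios were -0.24 ± 0.063 (SE) in CxH vs. CxWT, 0.13 ± 0.065 (SE) in CxH vs. MH and -0.37 ± 0.065 (SE) in MH vs. CxWT. After the GC and length correction the log2 ratio was -0.85 in MH vs. MWT, still called, and -0.57 in CxWT vs. MWT and -0.54 in CxH vs. MWT, both under the threshold. MWT had the fewest reads on genes of the 4 libraries.

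**Figure D2:**
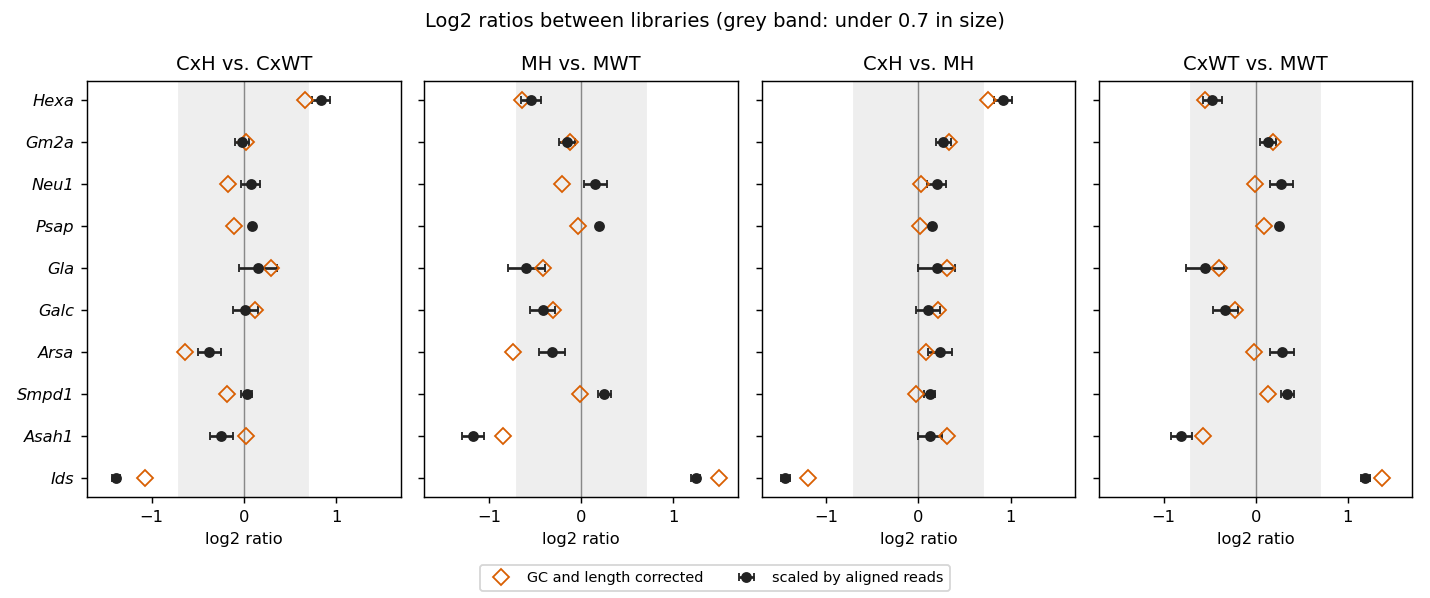
Log2 ratios of the 9 genes and Ids in the 4 comparisons of the study, as scaled by aligned reads (black, with bars for the 95% counting interval) and after correction for GC content and length (orange). Ids lies outside the grey band of ratios under 0.7 in size in all 4 comparisons, as do, before correction, Hexa in both comparisons that include CxH and Asah1 in both that include MWT. After correction Hexa in CxH vs. CxWT (0.66) and Asah1 in CxWT vs. MWT (-0.57) lie inside the band and Arsa in MH vs. MWT (-0.74) outside it.

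The calls among the 9 genes are set beside the share of all genes called. In CxH vs. CxWT, 1 of 9 was called (Hexa, higher), where 20.9% of all genes were called, 9.46% as higher and 11.5% as lower in CxH. MH vs. MWT likewise had 1 of 9 called (Asah1, lower), against 25.0% of all genes, with 12.3% higher and 12.7% lower in MH. Hexa was again the 1 of 9 called, as higher, in CxH vs. MH, against 3.50% of all genes, with 2.43% higher and 1.06% lower in CxH. CxWT vs. MWT had 1 of 9 called (Asah1, lower), against 7.54%, with 5.43% higher and 2.11% lower in CxWT. For the remaining pairs, 1 of 9 was called in CxH vs. MWT (Asah1, lower), against 30.7%, with 15.6% higher and 15.1% lower in CxH. MH vs. CxWT had 0 of 9 called, against 15.3%, with 6.41% higher and 8.89% lower in MH. A p-value under 0.05, whatever the ratio, was reached by 4 of 9 in CxH vs. CxWT (73.45% of all genes), 9 in MH vs. MWT (74.76%), 6 in CxH vs. MH (59.06%), 9 in CxWT vs. MWT (61.71%), 8 in CxH vs. MWT (78.83%) and, for MH vs. CxWT, 6 (66.59%). As each library takes part in 3 pairs, these counts are not independent of each other.

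The median log2 ratio of the 9 genes was 0.03 in CxH vs. CxWT, where that of all genes was -0.09, and -0.32 in MH vs. MWT, where that of all genes was -0.07. In CxH vs. MH it was 0.20 against 0.01 for all genes, and all 9 genes were above 0, although 8 of them by less than the threshold. Of all genes, 51.86% were above 0 in this comparison. After the GC and length correction 8 of the 9 genes were above 0. In CxWT vs. MWT the median of the 9 genes was 0.13 against 0.04, with 5 of 9 genes above 0 (55.28% of all genes). After the GC and length correction it was -0.024, with 3 of 9 above 0. In CxH vs. MWT the median was 0.12 against -0.04, and it was -0.088 after the correction. The pair MH vs. CxWT had all 9 genes at or below a log2 ratio of -0.04, with a median of -0.09, where that of all genes was -0.11, but 5 of the 9 were above 0 with TMM or DESeq2 size factors, at medians of 0.015 and 0.017. Of all genes, 37.79% were above 0 in this pair as scaled by aligned reads.

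The GC content of transcripts moved with the ratios of all genes. Over 10721 genes, the Spearman correlation of GC content with the log2 ratio was 0.46 in CxH vs. CxWT, 0.49 in MH vs. MWT, 0.58 in CxH vs. MH, 0.63 in CxWT vs. MWT, 0.69 in CxH vs. MWT and, for MH vs. CxWT, 0.17. These are correlations over genes that share libraries and are given as a description. Of the 9 genes, Hexa, Neu1, Psap, Arsa and Smpd1 had transcripts over 54% GC, and the median of all genes was 50.7%. Asah1 was the lowest at 43.5%, followed by Gla at 46.3%, Galc at 46.9% and Gm2a at 48.4%. The 3 genes that were highest in MWT were thus the 3 lowest in GC content, and Neu1, Psap and Smpd1, which were lowest in MWT, were at 57.0%, 54.7% and 55.7%. With the correction, the log2 ratio in CxH vs. MWT went from 0.35 to -0.17 for Neu1, from 0.34 to -0.01 for Psap and from 0.38 to -0.04 for Smpd1, and from -0.31 to -0.09 for Galc and from -0.40 to -0.09 for Gla. In the same pair it went from 0.37 to 0.12 for Hexa and from -1.05 to -0.54 for Asah1, while it grew in size for Arsa, from -0.08 to -0.65, and for Gm2a, from 0.12 to 0.21.

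The promoter table held windows of 250 bases before to 50 bases after the start for 8 of the 9 genes, with 9 windows in all. They were searched on both strands for the E-box CACGTG and for the longer TCACGTGA, which contains it and is the core of the element of lysosomal genes known as CLEAR. Both read the same on either strand. CACGTG was in 7.15% of the 32851 windows of the table and TCACGTGA in 0.974%. Among the 9 genes, Gla held TCACGTGA at 228 and at 195 bases before its start, and Arsa held CACGTG at 16 bases before its start. No match lay in the windows of Hexa, Gm2a, Neu1, Galc, Psap and Smpd1. The 250 bases before the starts of Gla (RefSeq, GRCm38.p6, chrX:134601006-134601255, minus strand) and Arsa (chr15:89477425-89477674, minus strand) are given 5′ to 3′ with these matches in capitals, as the windows that hold them. A match is a description of these letters and not a measured binding site.
Gla: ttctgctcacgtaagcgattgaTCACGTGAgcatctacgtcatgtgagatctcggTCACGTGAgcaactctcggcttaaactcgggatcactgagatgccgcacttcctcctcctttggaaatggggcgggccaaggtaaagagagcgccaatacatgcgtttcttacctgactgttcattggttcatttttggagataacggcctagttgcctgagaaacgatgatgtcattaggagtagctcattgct
Arsa: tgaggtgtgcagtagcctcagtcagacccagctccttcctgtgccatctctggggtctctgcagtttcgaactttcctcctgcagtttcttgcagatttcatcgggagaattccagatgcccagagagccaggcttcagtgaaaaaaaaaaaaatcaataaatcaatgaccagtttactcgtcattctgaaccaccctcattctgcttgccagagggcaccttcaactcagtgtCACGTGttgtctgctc

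Other genes of sphingolipid and ganglioside breakdown, from a list of 23 of which 22 were counted, had 4 called higher and 2 called lower in CxH vs. CxWT, with a median log2 ratio of 0.12, where 20.9% of all genes were called. Under the alternative settings this count of 6 ranged from 4 to 6. The genes called higher were the cytosolic sialidase Neu2 (log2 ratio 1.68, 209 and 57 reads), Smpdl3b (1.29, 129 and 46 reads), the neutral sphingomyelinase Smpd3 (1.05, 3062 and 1295 reads) and Ctsa. Neutral ceramidase Asah2 (-1.73, 300 and 866 reads) and alkaline ceramidase Acer3 (-0.92, 231 and 382 reads) were called lower. For MH vs. MWT the same list had 3 called higher, Neu2 (1.78), Smpd3 (1.39) and Smpd4 (1.18), and 5 called lower, with a median of -0.28, where 25.0% of all genes were called, and the count of 8 ranged from 6 to 9. Those called lower were Asah2 (-1.28), Acer3 (-1.04), the lysosomal cholesterol carrier Npc2 (-1.03, 1774 and 2797 reads), Acer2 (-0.87) and the lysosomal membrane protein Scarb2 (-0.85, 885 and 1237 reads). In CxH vs. MH 2 genes were called, both higher, Acer2 at 0.82 and Npc2 at 0.75, with a median of 0.27, where 3.50% of all genes were called, and neither was called at a log2 threshold of 1 or with an assumed coefficient of variation of 0.2. In CxWT vs. MWT 0 of 22 were called, with a median of -0.05, where 7.54% of all genes were called. The lysosomal beta-galactosidase Glb1, at 13.3 to 16.8 RPM, was not called in these 4 comparisons.

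Genes that build gangliosides had 4 called higher and 1 called lower of 15 in CxH vs. CxWT, where 20.9% of all genes were called, and the count of 5 ranged from 2 to 7 under the alternative settings. GM2/GD2 synthase B4galnt1 was called higher there at a log2 ratio of 0.89 (5002 and 2355 reads), as were St6galnac5 at 1.18, St8sia5 at 0.84 and St6galnac6 at 0.76, while GD3 synthase St8sia1 was called lower at -1.05 (1140 and 2064 reads). Between MH and MWT, B4galnt1 (0.76), St6galnac5 (1.62) and St8sia5 (1.02) were called higher and St8sia1 (-0.80) and St6galnac3 (-0.70) lower, where 25.0% of all genes were called, and the count of 5 ranged from 2 to 5. The markers of the areas moved in these comparisons too, with a median log2 ratio of 3.19 and 3.47 for those of cortical excitatory neurons and of -7.08 and -5.37 for those of midbrain and diencephalon, and their part in the levels of these enzymes was not tested. In CxH vs. MH and CxWT vs. MWT, where 3.50% and 7.54% of all genes were called, 0 of the 15 were called. The summed level of the 15 genes was 945, 770, 826 and 740 RPM (CxH, CxWT, MH and MWT, in this order).

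Of the 13 counted genes of ceramide and sphingomyelin synthesis, out of 18 listed, 2 were called lower in CxH vs. CxWT, Sptssb (-1.79, 70 and 211 reads) and Sptssa (-0.76), both small subunits of serine palmitoyltransferase. Between MH and MWT, Sptssb (-2.41) and the very long chain ceramide synthase Cers2 (-0.93, 1071 and 1580 reads) were called lower. The median log2 ratio of the list was -0.36 and -0.38 in these comparisons, where 11.5% and 12.7% of all genes were called lower, and its count of calls ranged from 1 to 2 and from 1 to 3 under the alternative settings. The 3 genes that make galactosylceramide and sulfatide, the substrates of Galc and Arsa, summed to 63.1 RPM in CxH and 112 in CxWT, with 62.3 in MH and 103 in MWT. Ugt8a, which adds the galactose to ceramide, was called lower in CxH vs. CxWT at -1.10 (910 and 1708 reads) and in MH vs. MWT at -1.20 (987 and 1758 reads). Fa2h was called lower in CxH vs. CxWT at -0.78, and Gal3st1, the sulfotransferase, was called higher in CxWT vs. MWT at 0.83. The calls were thus 2 of 3 in CxH vs. CxWT, 1 in MH vs. MWT and 1 in CxWT vs. MWT. Of all genes, 20.9%, 25.0% and 7.54% were called there. The count of 2 in CxH vs. CxWT fell to 1, and that of 1 in CxWT vs. MWT to 0, under some of the alternative settings. The oligodendrocyte markers moved with Ugt8a and Fa2h, at a median log2 ratio of -0.85 in CxH vs. CxWT and -0.69 in MH vs. MWT. Gal3st1, at -0.31 and 0.14, did not follow them in MH vs. MWT. The markers of the areas moved in both comparisons as well. The part of oligodendrocytes and of the areas in the levels of these lists was not tested. Galc, at 0.02 in CxH vs. CxWT and -0.42 in MH vs. MWT, and Arsa, at -0.37 and -0.32, were not called beside Ugt8a, except Arsa in MH vs. MWT after the GC and length correction.

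**Figure D3:**
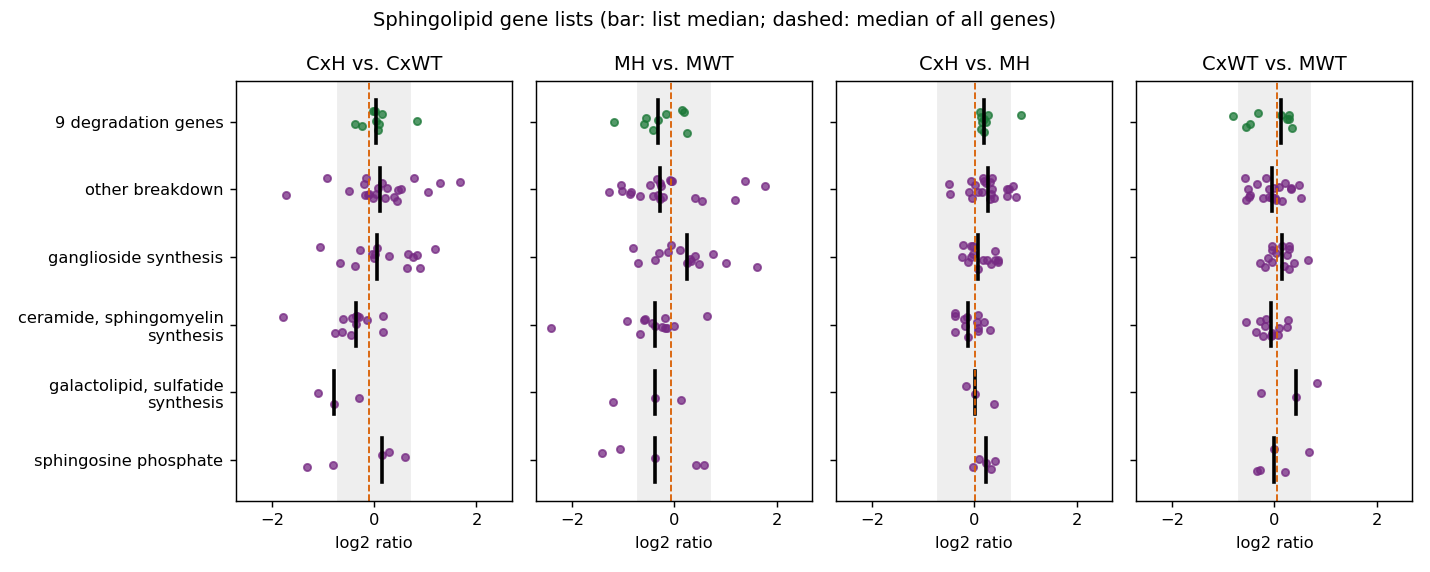
Log2 ratios of single genes (points) in the 4 comparisons of the study, for the 9 genes and the other lists of sphingolipid metabolism, with a bar at the median of each list, a dashed line at the median of all genes and a grey band for ratios under 0.7 in size. Most genes of the 9 and of the breakdown, ganglioside and ceramide lists lie inside the band in each comparison, and the points farthest out in CxH vs. CxWT and MH vs. MWT include Sptssb at -1.79 and -2.41.

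Of the 9 genes, Hexa and Arsa are set beside markers of cell types here. In bulk tissue, fewer cells of a type and less RNA per cell cannot be told apart. The 15 microglia markers summed to 967 RPM in CxH and 509.6 in CxWT, with 575 in MH and 846 in MWT, and none was at 0. By this sum CxH and MWT were the high libraries, as for Hexa, but 4 of the 15 markers (Csf1r, Cx3cr1, P2ry12 and Tmem119) were higher in MH than in MWT. In CxH vs. CxWT 10 of the 15 were called higher (9.46% of all genes), with a median log2 ratio of 0.96 beside 0.84 for Hexa, and in CxH vs. MH 9 of 15 were called higher (2.43% of all genes), with a median of 0.88 beside 0.92 for Hexa. In MH vs. MWT 5 of 15 were called lower (12.7% of all genes), with a median of -0.48 beside -0.55 for Hexa, and in CxWT vs. MWT 7 of 15 lower (2.11% of all genes), with a median of -0.56 beside -0.47 for Hexa. The part of these cells in the levels of Hexa was not tested. Lyz2, at 75.6, 19.8, 20.3 and 77.4 RPM (CxH, CxWT, MH and MWT, in this order), differed most between libraries. Of the markers of homeostatic microglia, P2ry12 ranged from 28.1 to 37.5 RPM, Cx3cr1 from 47.5 to 73.3 RPM, Csf1r from 62.4 to 99.1 RPM and Tmem119 from 17.9 to 35.7 RPM, and Tmem119 was called higher in CxH vs. CxWT at a log2 ratio of 0.79. The 12 oligodendrocyte markers summed to 5131 RPM in CxH and 9720 in CxWT, with 5345 in MH and 7843 in MWT, with 9 of 12 called lower in CxH vs. CxWT and 6 of 12 in MH vs. MWT, where 11.5% and 12.7% of all genes were. At a log2 threshold of 1 these counts fell to 4 and 3, and the counts of microglia markers ranged over the alternative settings from 7 to 13 in CxH vs. CxWT, 5 to 9 in CxH vs. MH, 5 to 7 in MH vs. MWT and 5 to 7 in CxWT vs. MWT. Arsa was, as the sum of the oligodendrocyte markers, highest in CxWT and higher in both wt libraries than in the Ids-ko library of the same area label. In CxH vs. MWT, however, its log2 ratio was -0.08 ± 0.068 (SE), where these markers had a median of -0.71. The part of myelin-forming cells in the level of Arsa was not tested.

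**Figure D4:**
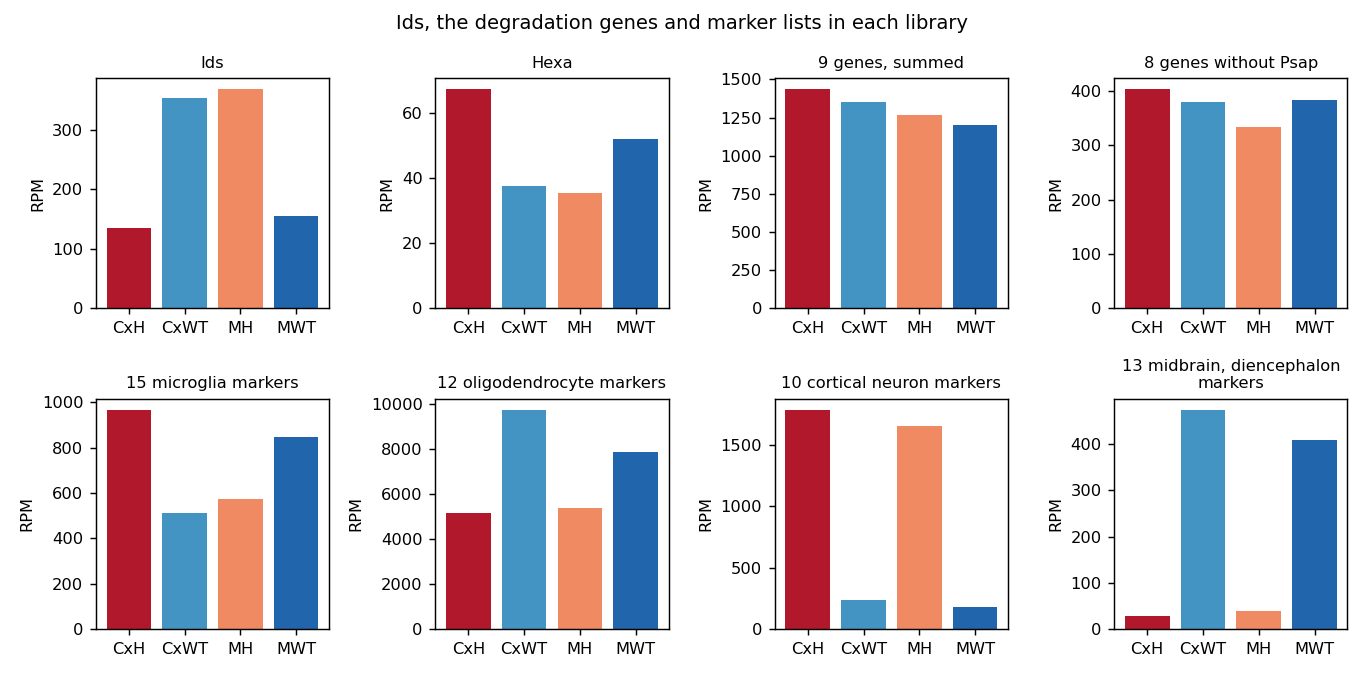
Levels in RPM of Ids, of Hexa, of the 9 genes summed with and without Psap, and of 4 summed marker lists in the 4 libraries, each on an axis of its own that starts at 0 and with no error bars. Hexa and the microglia markers are high in CxH and MWT, the oligodendrocyte markers are high in CxWT and MWT, and the cortical and the midbrain and diencephalon markers set CxH and MH apart from CxWT and MWT.

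Over the 4 libraries, the genes whose profile was most like that of a called gene were ranked by the root mean square distance between log2 RPM profiles centred on their mean, among the 11009 other genes with 100 reads or more in each library. For Hexa these were C4b (distance 0.025, with 52.5, 30.5, 28.4 and 42.5 RPM for CxH, CxWT, MH and MWT), the fourth complement component, Ptgds (0.026), the prostaglandin D2 synthase, Rps9 (0.036), Rab3il1 (0.044) and Plcg2 (0.058). For Asah1 they were Tmem70 (0.039), Tmem60 (0.044), Tmem243 (0.049), Fam136a (0.050) and Uqcrb (0.051), a subunit of respiratory complex III, at 19.8, 24.8, 19.1 and 45.2 RPM. Each of the 5 was, like Asah1, highest in MWT, which follows from their choice by likeness to its profile. With 4 points per profile and a shared depth in each library, many genes can lie close together.

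**Figure D5:**
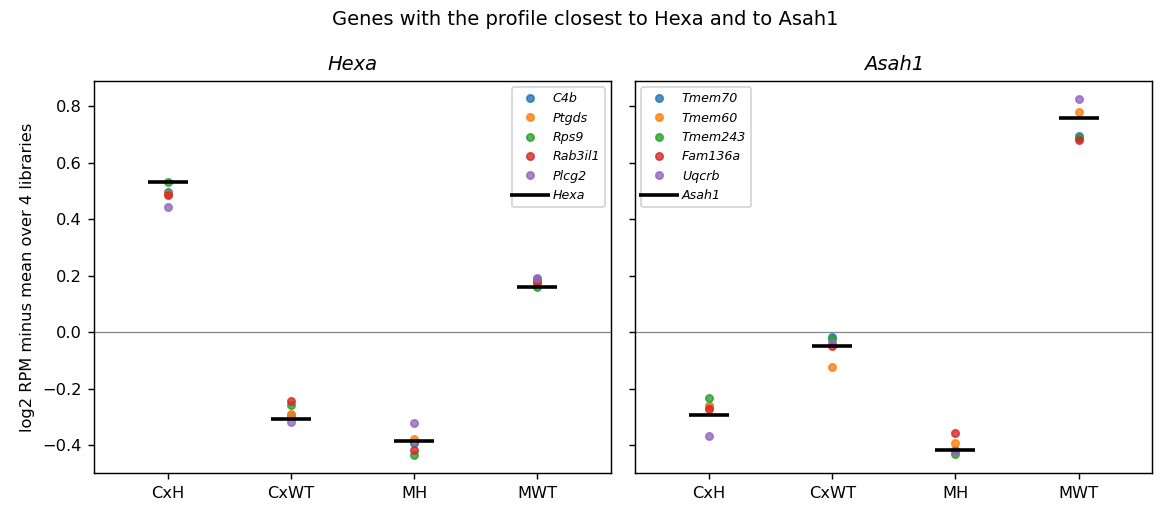
Log2 RPM minus the mean over the 4 libraries for Hexa and for Asah1 (black bars), each with the 5 genes at the smallest distance (coloured points). The genes were chosen for this likeness, so that each group has the order of its own gene. The Hexa group peaks in CxH and is second in MWT, and the Asah1 group is highest in MWT.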

How the data were processed

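RNA-seq was measured in 4 libraries, 1 per condition. The deposited values are raw read counts per gene, which the authors made from SOLiD reads aligned with PASS 2.10 to NCBI37/mm9 with at most 2 mismatches, keeping reads that fell on 1 gene alone and only genes with coverage of over 50% of the transcript. The gene annotation, and whether counting used strand, are not given in the sources used here. Per the submitters' processing notes the genome build was mm9.

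Of the 12700 Entrez IDs, 12690 were matched to a symbol in a RefSeq gene table (GRCm38.p6, used for names and promoter sequences), and 12440 to GENCODE vM1 (the build of the files), of which 12248 gave GC content and length of a coding transcript. RPM are counts divided by the aligned reads that the study gives for each library, and RPKM divide RPM by transcript length in kilobases. A count of 0 was set to 1 for ratios. Reads on genes were 56.6% to 61.0% of aligned reads. A count of 3 reads, the limit that a count of 0 allows, was 0.0779 to 0.104 RPM. Intervals and SE cover counting error only, and the spread between pools is unknown.

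As in the study, all genes were tested by a Poisson likelihood ratio test, with both thresholds of the study (p-value under 0.05, size of log2 ratio 0.7 or more). The computation was tested on simulated data. The 4 comparisons of the study and the other 2 pairs were run. Alternatives were column totals, edgeR TMM and DESeq2 size factors, a minimum of 100 reads, a log2 threshold of 1, Benjamini-Hochberg adjustment, an edgeR exact test with an assumed coefficient of variation of 0.1 or 0.2, 0.5 added to each count, and a correction by natural cubic splines (5 degrees of freedom) on GC content and log length. The lists were other sphingolipid and ganglioside breakdown, ceramide and sphingomyelin synthesis, ganglioside synthesis, galactolipid and sulfatide synthesis, sphingosine phosphate metabolism, and markers of microglia, oligodendrocytes, astrocytes, neurons, cortical excitatory neurons, and midbrain and diencephalon. Fits with a block were added after seeing the data. The 9 genes and these lists were chosen with earlier results of these data known. Genes were named if they were among the 9, Ids, called in a list in a comparison of the study, or, for lists with no call, the highest and lowest, and, for each called gene of the 9, the 5 with the nearest profile. Other list members were named after their values were seen, namely Glb1, Sumf1, Csf1r, Cx3cr1, P2ry12, Sphk1, Sphk2 and Sgpl1. Some genes of the lists are not reported here by name. Software was R 4.3.3 (DESeq2 1.42.0, edgeR 4.0.16) and Python 3.11.15 (scipy 1.17.1, numpy 2.4.6, matplotlib 3.10.9, pandas 2.3.3).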

Additional observations from a re-analysis of the deposited data

Results flagged for a closer look

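Hexa had opposite directions in comparisons of the same kind. The log2 ratio of Ids-ko over wt was 0.84 in CxH vs. CxWT and -0.55 in MH vs. MWT, and that of Cx over M was 0.92 in CxH vs. MH but -0.47 in CxWT vs. MWT. Each ratio rests on 1 library per side, and the difference between the ratios was not tested. The ratios share libraries, and the directions are those of the labels, against which Ids ran in M and the area markers ran in CxWT and MH. In each of the 4 comparisons the library with less Ids had more Hexa.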

How the results depend on the processing

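The labels give no replicate numbers to pair libraries by, and with 1 library per condition none could be left out of a comparison. An additive edgeR quasi-likelihood fit over the 4 libraries with a block, chosen after seeing the data, left 1 residual degree of freedom. Both libraries of a genotype came from the same mice. The fit of Ids-ko over wt takes them as replicates, so that its calls do not measure the spread between mice. For Ids-ko over wt with area as block it called 0 of the 9 genes and 2369 of 12700 genes (adjusted p under 0.05), and 1 of the 9 (Asah1, log2 ratio -0.71) and 4323 of 12700 at an unadjusted p under 0.05. For Cx over M with the mice of a genotype as block it called 0 of 9 and 0 of 12700, and 0 of 9 and 615 of 12700 unadjusted. The area markers split the libraries by genotype label and not by area label. Those of cortical excitatory neurons summed to 1784 and 1651 RPM in CxH and MH, against 235 and 178 in CxWT and MWT. The counts of both fits thus cannot tell genotype from area. Ids stood at -0.07 in the first fit. Of 270 log2 ratios of the 9 genes under the 5 settings that change a ratio, 26 turned direction (14 of 54 under the GC and length correction), 3 lost a call and 2 gained one. With a log2 threshold of 1, the genes called were 0 of 9 in CxH vs. CxWT, 0 in CxWT vs. MWT and 0 in CxH vs. MH, and with an assumed coefficient of variation of 0.2 they were 0 in CxWT vs. MWT. After the GC and length correction they were 0 in CxH vs. CxWT, 2 (Asah1 and Arsa) in MH vs. MWT, 0 in CxWT vs. MWT, 0 in CxH vs. MWT and 1 (Arsa) in MH vs. CxWT. That correction turned the log2 ratio in CxH vs. CxWT of Gm2a to 0.023, Neu1 to -0.17, Asah1 to 0.022, Psap to -0.10 and Smpd1 to -0.18. In MH vs. MWT it turned Neu1 to -0.20, Psap to -0.033 and Smpd1 to -0.012, in CxH vs. MH Smpd1 to -0.029, in CxWT vs. MWT Neu1 to -0.0083 and Arsa to -0.024, and in CxH vs. MWT Neu1 to -0.17, Psap to -0.0098 and Smpd1 to -0.035. Gm2a in CxH vs. CxWT turned to 0.078 with TMM and 0.071 with DESeq2 size factors. In MH vs. CxWT, TMM turned Hexa to 0.031, Galc to 0.019, Psap to 0.049, Gla to 0.063 and Smpd1 to 0.015, and DESeq2 size factors turned them to 0.032, 0.021, 0.051, 0.065 and 0.017. In that pair these scalings moved the median of all genes by 0.11, and column totals moved it by -0.11 in CxH vs. MWT. Over all genes, a threshold of 1 left 1401, 1642, 143 and 295 calls in the 4 comparisons of the study, in the order of the report, and 1961 and 1064 in CxH vs. MWT and MH vs. CxWT, from 2658, 3170, 444, 958, 3895 and 1943. A coefficient of variation of 0.2 left 487 in CxWT vs. MWT and 191 in CxH vs. MH, and the GC and length correction 376 in CxWT vs. MWT and 2017 in CxH vs. MWT. The share of calls that were higher went from 45.2% to 56.0% (TMM) and 55.4% (DESeq2) in CxH vs. CxWT, from 49.1% to 42.1% (column totals), 56.1% (TMM) and 56.3% (DESeq2) in MH vs. MWT, from 69.6% to 58.4% (column totals) in CxH vs. MH, from 72.0% to 55.2% in CxWT vs. MWT and from 50.8% to 39.1% in CxH vs. MWT (column totals), and from 41.9% to 54.2% (TMM) and 54.4% (DESeq2) in MH vs. CxWT. The causes of these changes were not tested. In CxH vs. MH all 9 genes stayed above 0 under the 3 other scalings.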

Other observations

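The 5 genes that handle sphingosine phosphate, the step after acid ceramidase, summed to 125 RPM in CxH and 154 in CxWT, with 106 in MH and 163 in MWT. The sphingosine phosphate phosphatases Sgpp1 and Sgpp2 were called lower in CxH vs. CxWT, where 20.9% of all genes were called, at log2 ratios of -0.80 (1049 and 1591 reads) and -1.30 (579 and 1248 reads), and in MH vs. MWT, where 25.0% were, at -1.06 (1038 and 1675 reads) and -1.41 (524 and 1077 reads). In CxH vs. CxWT this count of 2 fell to 1 at a log2 threshold of 1, after the GC and length correction and with an assumed coefficient of variation of 0.2. None of the 5 was called in CxH vs. MH or CxWT vs. MWT, where 3.50% and 7.54% of all genes were called. The markers of the areas also moved in CxH vs. CxWT and MH vs. MWT, and their part in these levels was not tested. Sphk1, Sphk2 and the lyase Sgpl1 were not called in these 4 comparisons.

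The 8 astrocyte markers summed to 3970 RPM in CxH and 2937 in CxWT, with 3212 in MH and 3660 in MWT. In CxH vs. CxWT 2 were called higher, Gfap at a log2 ratio of 1.11 (23235 and 9417 reads) and Slc1a2 at 0.84, and 1 lower, Aqp4 at -0.80, where 20.9% of all genes were called, and the count of 3 ranged from 1 to 3 under the alternative settings. In MH vs. MWT 3 were called lower, Gfap at -1.13, Aqp4 at -1.30 and S100b at -0.79, where 25.0% of all genes were called, and the count of 3 ranged from 2 to 3. Gfap alone was called in CxH vs. MH, higher at 1.25, and in CxWT vs. MWT, lower at -0.99. The shares of all genes called there were 3.50% and 7.54%. At a log2 threshold of 1 the call in CxWT vs. MWT was lost. The 7 markers of neurons summed to 3365, 3200, 3329 and 3187 RPM (CxH, CxWT, MH and MWT, in this order). Rbfox3 was called higher in CxH vs. CxWT at 1.43 and in MH vs. MWT at 1.61, and Nefl in CxWT vs. MWT at 0.72, where 7.54% of all genes were called. The markers of the areas moved in the comparisons that called Rbfox3 too, and their part was not tested. The call of Nefl was lost under all 3 other scalings, at a log2 threshold of 1 and with an assumed coefficient of variation of 0.2.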
